A study of Mus musculus with 13 samples.

Results

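Hearts of mice lacking Hmox2, the gene of heme oxygenase-2, were compared with hearts of wild-type littermates. The comparison took every library whose tissue label is heart, which is 7 of the 13 RNA-seq libraries of the study. The labels give 4 Hmox2+/+ hearts (WT 1 to WT 4) and 3 Hmox2-/- hearts (KO 1 to KO 3), all of mice kept in room air without any other treatment. This is 1 control heart more than the figure legends name, and which of the labelled hearts they leave out is not given. The deletion is carried by the whole animal, so every cell type of the heart lacked the gene, and the sequenced mice are described as young, while their exact age, sex and genetic background are not given in the sources used here. Hearts were flushed with saline at harvest, RNA was isolated from fast-frozen and pulverized whole heart, and directional libraries were prepared after oligo-dT selection. The other 6 libraries, of aortic endothelial cells (ECs), entered only 1 alternative fit. The question put to the heart libraries was which genes and pathways differ between the genotypes in the tissue as a whole, genes of heart muscle among them.

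Heme oxygenases open the heme ring and release iron, carbon monoxide and biliverdin, which biliverdin reductase turns into bilirubin. The enzyme has 2 genes. Hmox1 is induced by heme, oxidants and hypoxia, often through the transcription factor NRF2, while Hmox2 is transcribed steadily in most tissues, including endothelium and nerve. Cardiac muscle is rich in heme proteins, since myoglobin and the cytochromes of the respiratory chain carry it, and ferritin stores the iron that heme breakdown sets free.

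Levels are CPM, counts scaled to a common library size with factors from the trimmed mean of M-values (TMM), and fold changes as log2 of Hmox2-/- over Hmox2+/+. A gene is said to have risen or fallen where its Benjamini-Hochberg adjusted p from edgeR's quasi-likelihood test was at most 0.05 over all 13816 genes tested. A differentially expressed gene (DEG) also differed by 1 or more on the log2 scale. Of all genes tested, 2380 (17.2%) rose and 2238 (16.2%) fell, and the median log2 fold change was -0.01. DEGs were 368 (2.66%) upwards and 559 (4.05%) downwards. Each named gene that is said to have risen or fallen did so also when any 1 library was left out, except where another value is given beside it. Over those fits 1535 genes (without KO 2) to 2911 (without KO 3) rose, 1353 (without KO 2) to 2775 (without KO 3) fell and 252 (without KO 1) to 560 (without KO 3) were DEGs upwards. With counts rebuilt from length-scaled TPM, Cacna1g, Camk2d, Celf2, Eif2s3y, G6pdx, Hfe, Qki, Rbfox1, Slc39a14, Tbx3 and Xaf1, all named in what follows, no longer passed. The labels do not say more of the replicates than their number, so p-values measure the spread between these hearts. In bulk tissue fewer cells of a type and less RNA per cell cannot be told apart.

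Total estimated counts were 7268626 in WT 1, 29815090 to 31619776 in the other Hmox2+/+ libraries and 29926774 to 30907132 in the Hmox2-/- libraries. The gene groups described here were lists of 987 genes in all, of which 919 passed the filter on low counts and 60 did not, at 2.48 CPM or less in every library. The other 8 were not found under the gene symbol in the list, so their levels were not read. At the depth of WT 1, 3 counts correspond to 0.446 CPM, against 0.0881 to 0.114 CPM in the other libraries. The 13 protein-coding transcripts of mitochondrial DNA took up 37.6% to 44.3% of the counts of Hmox2+/+ hearts and 22.5% to 27.2% in Hmox2-/- hearts, and all 13 fell, by 0.30 (mt-Co3) to 1.85 (mt-Nd3, -2.56 without KO 1) on the log2 scale. The adjusted p of mt-Co3 was 0.033, and 0.10 without WT 3.

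Fold changes moved with the length of the transcript. In 10 bins of genes ordered by transcript length, the median log2 fold change went from 0.52 in the shortest bin (median length 823 bases) to -0.46 in the longest (6550 bases). In the shortest bin 50.4% of genes rose and 4.49% fell, whereas in the longest bin 1.23% rose and 49.5% fell. The summed CPM of the longest bin was 0.802, 0.809, 0.801 and 0.803 times that of the shortest bin in the Hmox2+/+ libraries, and 0.250, 0.394 and 0.564 times in the Hmox2-/- libraries. The Hmox2+/+ libraries were therefore almost equal to each other, and the Hmox2-/- libraries were all lower and differed among themselves, KO 1 most and KO 3 least from the controls. Median GC content went from 51.9% to 47.6% along the same bins. RNA integrity values are not given in the sources used here, and the part of RNA quality in this trend was not tested. A second fit therefore carried an offset for length and GC content, after which the bin medians lay between -0.04 and 0.02, with 1779 genes (12.9%) higher and 1800 (13%) lower, among them 243 (1.76%) and 507 (3.67%) DEGs. Results of both fits are given side by side for each gene group, as the value and the value with the offset. Where leaving out 1 library changed the number of members higher or lower in the first fit by over 1.5 times and by more than 1 gene, that number (of the first fit) is given as well.

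**Figure D1:**
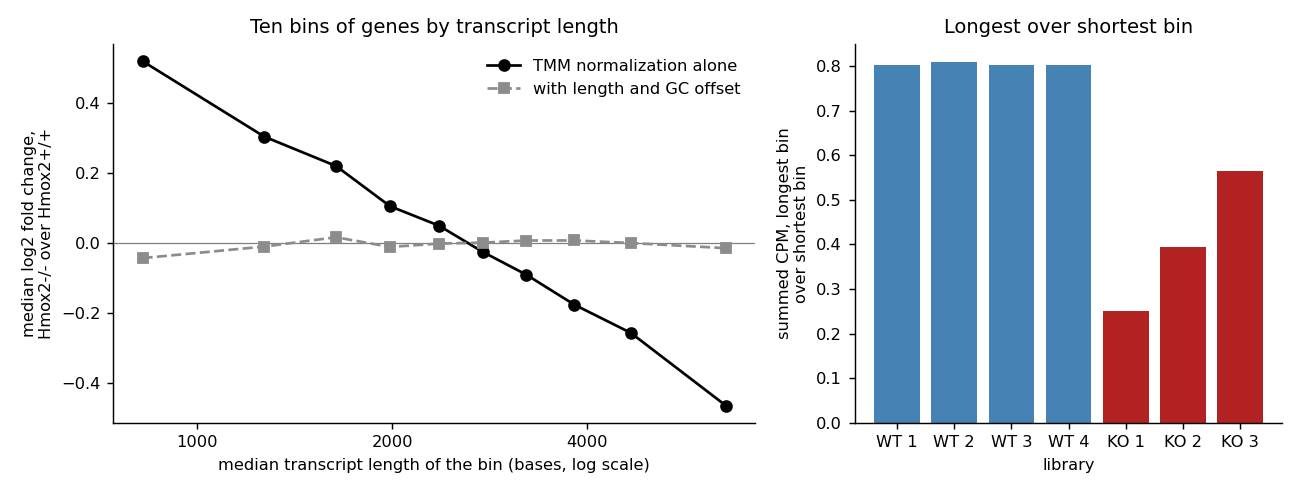
Left, median log2 fold change (Hmox2-/- over Hmox2+/+) of 10 bins of genes against the median transcript length of the bin in bases (log scale), with TMM normalization alone (circles) and with the offset for length and GC content (squares). Right, summed CPM of the longest bin divided by that of the shortest bin in each library (blue Hmox2+/+, red Hmox2-/-). Medians run from 0.52 to -0.46 without the offset, and the ratio is 0.801 to 0.809 in the controls but 0.250 to 0.564 where Hmox2 is deleted.

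**Figure D2:**
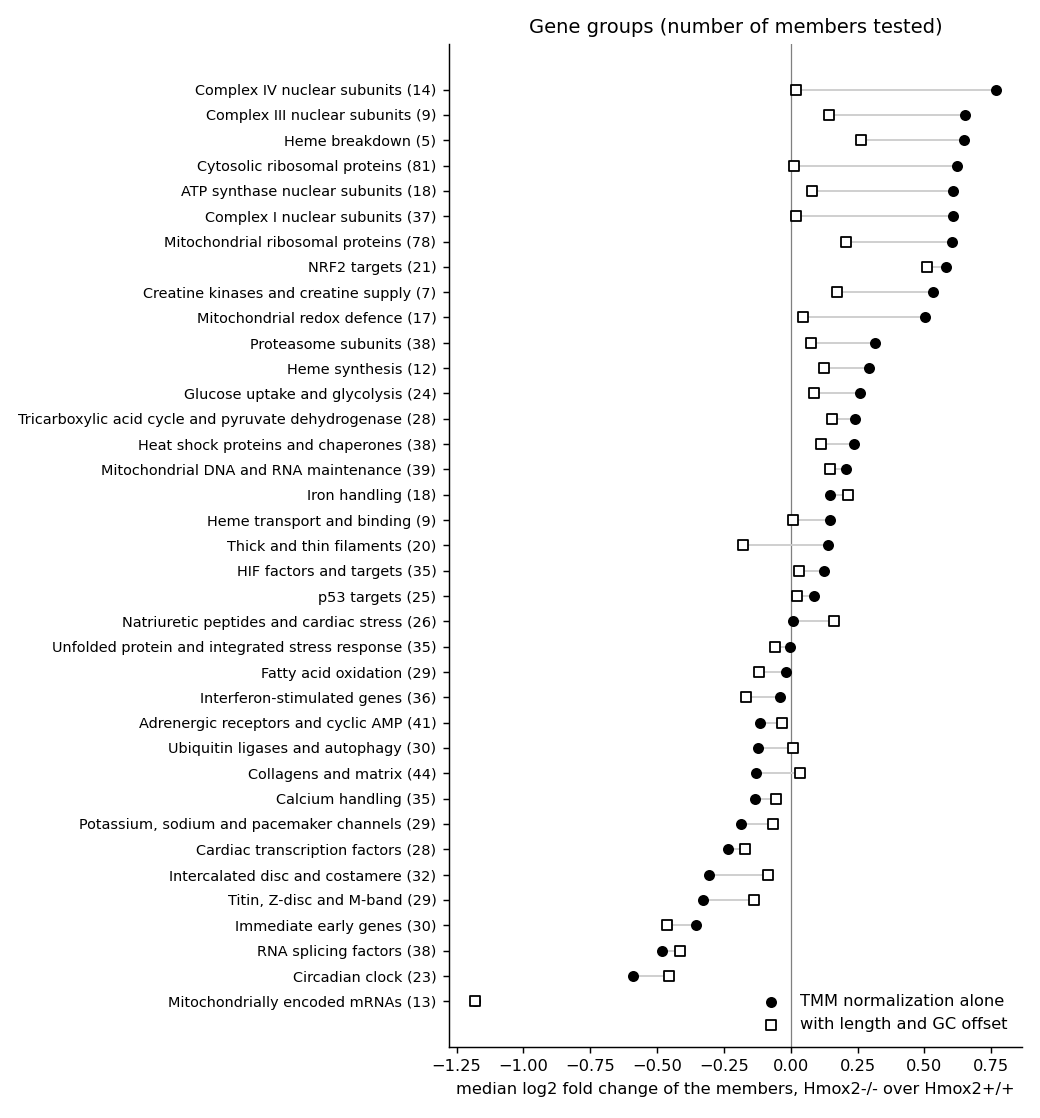
Median log2 fold change of the members of each gene group with at least 5 members tested, with TMM normalization alone (filled circles) and with the offset for length and GC content (open squares), the number of members tested in parentheses. Groups of short transcripts such as cytosolic ribosomal proteins and nuclear subunits of complexes I and IV move to near 0 with the offset. Mitochondrial ribosomal proteins move from 0.60 to 0.21, while the NRF2, splicing factor, immediate early and clock groups keep medians of 0.51, -0.41, -0.46 and -0.46.

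The Hmox2 gene lies on chromosome 16 (4544216 to 4589816, plus strand, GRCm39). Hmox2 was 40.7, 42.5, 37.3 and 38.8 CPM in the Hmox2+/+ hearts and 8.90, 7.53 and 7.81 CPM in the Hmox2-/- hearts (log2 fold change -2.30 ± 0.11 (SE), adjusted p = 1.6e-07; exact permutation test p = 0.0286, two-sided, the smallest p that 35 splits of 4 against 3 allow). What was left in the Hmox2-/- hearts, 20.3% of the control level, was of a different transcript make-up. Hmox2-201, the main coding transcript of the control heart, was 26.1, 28.7, 24.6 and 23.7 CPM in Hmox2+/+ hearts and 2.22, 2.27 and 2.09 CPM in Hmox2-/- hearts (log2 fold change -3.55 ± 0.13 (SE), adjusted p = 8.2e-05). Hmox2-203 was 9.52, 9.80, 5.69 and 10.7 CPM in Hmox2+/+ hearts and 0 in every Hmox2-/- heart (adjusted p = 0.0028). In contrast Hmox2-205, a short transcript of 584 bases, was 0.433, 0.932, 0.948 and 0.635 CPM in Hmox2+/+ hearts and 5.08, 5.13 and 5.52 CPM in Hmox2-/- hearts (log2 fold change 2.79 ± 0.34 (SE), adjusted p = 0.010, 0.061 at most with 1 library left out). The groups did not overlap for any of these transcripts. Hmox2-205 held 1.87% of the counts of the gene in Hmox2+/+ hearts and 63.8% in Hmox2-/- hearts. Because Hmox2-205 is short, the difference between the genotypes was smaller per length, with 25.9 to 34.4 TPM (a level per transcript length) for the gene in Hmox2+/+ hearts and 15.9 to 18.5 TPM in Hmox2-/- hearts, and counts rebuilt from length-scaled TPM gave a log2 fold change of -1.09. Cut into words of 31 bases, 73.4% of Hmox2 as annotated in GENCODE M39 is also found in another gene, 70.7% of it in Cdip1. In that annotation Hmox2-201 has 6948 bases, 5975 of them in its last exon, whereas the deposited files list it with 1730 bases, so the share for the sequence that was counted is not given by this value.

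Hmox2-205 consists of an alternative first exon, exons 2 and 3 of the gene and the first 79 bases of exon 4, and ends at position 4582548, while exon 4 of Hmox2-201 runs from 4582470 to 4582961 and is followed by 2 more exons in the GENCODE M39 annotation. Of the counts left in Hmox2-/- hearts, 63.8% were thus assigned to a transcript of the 5′ part of the gene, 26.7% to Hmox2-201, which spans all exons, and 8.18% to Hmox2-204, which ends in exon 4. The study's qPCR primers for Hmox2 lie in the 5′ part, and are shown because they fall within every transcript named so far:
forward: tcggagggggtagatgagtc
reverse: gcttccttggtcccttcctt
The forward primer matched exon 2 (chromosome 16, 4580480 to 4580499) and the reverse primer, as its reverse complement, exon 3 (4581618 to 4581637) of Hmox2-201 to Hmox2-205, whereas neither matched Hmox2-206.

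**Figure D3:**
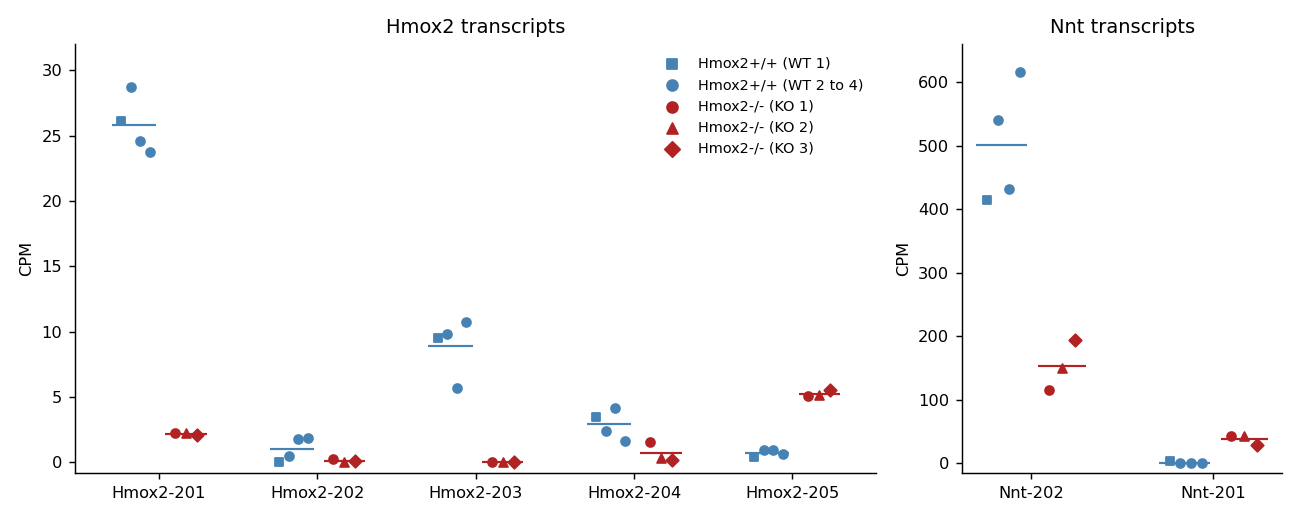
CPM of 5 Hmox2 transcripts (left) and of Nnt-202 and Nnt-201 (right) in each heart library, with lines at the group means (blue Hmox2+/+, red Hmox2-/-). Hmox2-201 and Hmox2-203 are low or 0 in the 3 Hmox2-/- libraries while Hmox2-205 is higher in each of them, and Nnt-201 is near 0 in Hmox2+/+ libraries and 28.6 to 43.8 CPM in Hmox2-/- libraries.

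Cdip1, a proapoptotic membrane protein gene, overlaps Hmox2 on the opposite strand, and whether the counting used the strand of the reads is not given in the sources used here, so reads of the 2 genes may not be fully separated. Cdip1-201 was 13.6, 16.0, 12.7 and 11.4 CPM in Hmox2+/+ hearts and 1.05, 0.342 and 0.516 CPM in Hmox2-/- hearts (log2 fold change -4.39 ± 0.41 (SE), adjusted p = 0.0039). Cdip1-203 was 31.3, 35.2, 30.2 and 33.3 CPM and 4.12, 6.84 and 7.86 CPM (log2 fold change -2.37, adjusted p = 0.0040). Both transcripts were lower in every Hmox2-/- heart than in every control. Within 2 Mb of Hmox2, 37 genes were tested, of which 6 rose and 5 fell, and the 4 DEGs were Cdip1, Dnase1, Trap1 and AU021092. Within 10 Mb, 12 of 75 genes tested rose, 12 fell and Nubp1 was the only further DEG. The shares that rose and fell were near those of all genes tested (17.2% and 16.2%). Of all genes tested, 2.66% were DEGs upwards and 4.05% downwards.

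Among the genes of heme breakdown, the inducible isoform was higher without Hmox2. Hmox1 was 2.53, 4.15, 4.49 and 4.0 CPM in Hmox2+/+ hearts and 12.4, 25.1 and 10.02 CPM in Hmox2-/- hearts (log2 fold change 2.0 ± 0.29 (SE), adjusted p = 9.0e-04; 1.71 with the offset). Every Hmox2-/- heart lay above every control, and KO 2 had the highest level. Blvra, biliverdin reductase A, was 8.18, 8.93, 9.37 and 8.39 CPM in Hmox2+/+ hearts and 16.0, 12.6 and 12.7 CPM in Hmox2-/- hearts (log2 fold change 0.65, adjusted p = 0.0041), but 0.26 with the offset (adjusted p = 0.078). Blvrb, biliverdin reductase B, rose by 0.67 on the log2 scale, with an adjusted p of 0.062 without KO 1 and 0.35 with the offset. Por, the reductase that feeds electrons to heme oxygenases, rose by 0.36, with an adjusted p of 0.094 without KO 2. Including Hmox2 itself, 4 of the 5 genes of heme breakdown rose and 1 fell, against 2 and 1 with the offset, and 2 rose without KO 2.

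Genes of heme synthesis did not move as 1 block. Of 12 tested, 6 rose and 1 fell (median 0.29), and 4 rose and 2 fell with the offset (median 0.12). Alas2, the erythroid 5-aminolevulinate synthase, was 6.25, 4.99, 2.70 and 3.50 CPM in Hmox2+/+ hearts and 15.7, 12.1 and 12.1 CPM in Hmox2-/- hearts (log2 fold change 1.69 ± 0.23 (SE), adjusted p = 6.3e-04). The hemoglobin gene Hbb-bt was higher in the same hearts (log2 fold change 2.11), although the hearts had been flushed, and the part of red blood cells in the level of Alas2 was not tested. Alas1, the housekeeping enzyme of the same step, was 180.1, 183, 136 and 125 CPM and 159, 116 and 134 CPM and did not pass the test (adjusted p = 0.37), and its groups overlapped. Alad, which joins 2 molecules of 5-aminolevulinate, was the member that fell, from 61.3, 61.9, 57.2 and 55.3 CPM in Hmox2+/+ hearts to 41.8, 38.1 and 31.7 CPM in Hmox2-/- hearts (log2 fold change -0.66 ± 0.11 (SE), adjusted p = 0.0017; -1.04 with the offset). Slc25a38, the mitochondrial glycine carrier (0.73), and Uros, which closes the porphyrin ring (0.63), rose in both fits. Fech, which inserts the iron, did not pass (0.20, adjusted p = 0.097).

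Of 9 heme transport and binding genes tested, 3 rose and 1 fell (median 0.15; 4 and 1 with the offset, median 0.01). Abcb6, a porphyrin transporter, was 21.3, 23.0, 17.4 and 19.3 CPM in Hmox2+/+ hearts and 36.0, 34.998 and 28.7 CPM in Hmox2-/- hearts (log2 fold change 0.72 ± 0.12 (SE), adjusted p = 0.0021). Slc48a1, the heme carrier that empties lysosomes, rose by 0.51 (it shares 79.0% of its words with other genes), and Pgrmc1, a heme-binding membrane protein, by 0.50. The exporter Flvcr1 did not pass (-0.51, adjusted p = 0.085).

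Iron storage genes were higher in Hmox2-/- hearts. Ftl1, the ferritin light chain, was 127, 137, 123 and 139 CPM in Hmox2+/+ hearts and 327, 314 and 238 CPM in Hmox2-/- hearts (log2 fold change 1.15 ± 0.12 (SE), adjusted p = 8.1e-05; 0.70 with the offset), and it shares 54.5% of its words. Fth1, the ferritin heavy chain, was 888, 937, 962 and 1116 CPM and 1793, 1637 and 1309 CPM (log2 fold change 0.69, adjusted p = 0.0026), but 0.18 with the offset (adjusted p = 0.14). Neither ferritin gene overlapped between groups. Of the 18 iron handling genes tested, 8 rose and 1 fell (median 0.15), and 6 rose and 1 fell with the offset (median 0.21). Iscu (0.82), the scaffold of iron-sulfur cluster assembly, rose, and so did the iron importer Slc39a14 (0.39) and the hepcidin regulator Hfe (0.42). Ireb2, an RNA-binding sensor of iron, fell by 0.57 on the log2 scale, from 39.1, 39.6, 44.9 and 42.2 CPM to 21.0, 28.3 and 34.5 CPM, but stood at -0.06 with the offset (adjusted p = 0.59). The transferrin receptor gene Tfrc did not pass (adjusted p = 0.33).

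Targets of NRF2, the transcription factor that answers oxidants and electrophiles, were higher in Hmox2-/- hearts in both fits. Of 21 tested, 13 rose and none fell (median 0.58), and with the offset 12 rose and 1 fell (median 0.51). Gsta4, a glutathione transferase for lipid aldehydes, was 33.2, 30.5, 29.97 and 32.6 CPM in Hmox2+/+ hearts and 80.7, 69.5 and 62.6 CPM in Hmox2-/- hearts (log2 fold change 1.17 ± 0.10 (SE), adjusted p = 3.1e-05; 0.77 with the offset). Srxn1, sulfiredoxin, which restores overoxidized peroxiredoxins, was 11.004, 14.3, 14.4 and 11.4 CPM and 21.0, 25.0 and 21.2 CPM (log2 fold change 0.79 ± 0.13 (SE), adjusted p = 0.0015). Neither gene overlapped between groups. Gstm1 rose by 0.65 and Gstm2 by 1.12 (they share 27.1% and 24.5% of their words), the glutathione and bile conjugate exporter Abcc4 by 0.69, and G6pdx and Tkt of the pentose phosphate pathway by 0.59 and 0.58. Not every target moved. Nqo1, a widely used NRF2 reporter gene, was 49.8, 43.9, 57.0 and 50.9 CPM in Hmox2+/+ hearts and 45.8, 42.9 and 39.3 CPM in Hmox2-/- hearts (adjusted p = 0.11), and fell with the offset (-0.40, adjusted p = 0.0029). Gclc and Gclm of glutathione synthesis did not pass (adjusted p = 0.076 and 0.19), although both did with the offset (0.51 and 0.62), and neither did Nfe2l2, the gene of NRF2 (53.4, 47.8, 64.0 and 57.1 CPM and 59.4, 51.2 and 49.3 CPM).

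Of 17 genes of mitochondrial redox defence, 11 rose and 2 fell (median 0.50), and 8 rose and 3 fell with the offset (median 0.05). Gpx1, glutathione peroxidase 1, was 26.8, 31.3, 32.03 and 26.7 CPM in Hmox2+/+ hearts and 79.6, 59.5 and 48.5 CPM in Hmox2-/- hearts (log2 fold change 1.09 ± 0.15 (SE), adjusted p = 7.3e-04; 0.54 with the offset). Prdx3, the mitochondrial peroxiredoxin, was 205, 208, 207 and 192 CPM and 327, 323 and 310.0 CPM (log2 fold change 0.66 ± 0.09 (SE), adjusted p = 4.4e-04). Both were higher in every Hmox2-/- heart than in every control. The genes that fell were Gsr, glutathione reductase, from 23.6, 20.3, 23.5 and 25.9 CPM to 13.4, 14.2 and 15.4 CPM (log2 fold change -0.70 ± 0.11 (SE), adjusted p = 0.0016), and Nnt. Cat, catalase, did not pass (adjusted p = 0.45).

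Nnt, the proton-driven transhydrogenase of the inner membrane that makes mitochondrial NADPH, changed both in level and in exon content. The gene lies on chromosome 13 (minus strand), and its full transcript Nnt-202 (3464 bases) was 414, 539.6, 432 and 616 CPM in Hmox2+/+ hearts and 116, 149.6 and 194 CPM in Hmox2-/- hearts (log2 fold change -1.71 ± 0.22 (SE), adjusted p = 0.011, and 0.074 at most with 1 library left out). Nnt-201 (3122 bases) was 4.04, 1.35, 0 and 0 CPM and 43.8, 42.6 and 28.6 CPM (log2 fold change 5.32 ± 1.23 (SE), adjusted p = 0.050), and its adjusted p was above 0.05 whichever library was left out (at most 0.17). The groups overlapped for neither transcript. Nnt-201 lacks exons 8 and 9 of Nnt-202 (119511165 to 119511310 and 119508932 to 119509127, 146 and 196 bases, 342 together), and held 0.303% of the counts of the gene in Hmox2+/+ hearts and 20.6% in Hmox2-/- hearts. The 2 transcripts differ at these junctions, with the first 15 bases in lower case from the exon before and the 15 capitals from the exon after the junction, 5′ to 3′ on the minus strand:
Nnt-201 exons 7 and 8: cagctctgattccagGCCTGACGATCGCAA
Nnt-202 exons 7 and 8: cagctctgattccagGTGGTTTTCTGGTGA
Nnt-202 exons 9 and 10: tgggtggcaccatcgGCCTGACGATCGCAA
The first of these is the junction that only Nnt-201 has, and the other two are those that Nnt-202 has around the 2 exons.

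The largest changes of the comparison were in genes of no single list, although Trap1 is a member of the chaperone list and Ighg2c of the B cell list. Counting nuclear genes of at least 1 CPM in the higher group, without overlap between groups and without near-identical copies, 479 DEGs qualified. Over all genes tested, 2847 (20.6%) lay higher in every Hmox2-/- heart than in any control and 2730 (19.8%) lower. Of the 12 with the largest rise, Cnmd, chondromodulin, was at 0 to 0.0708 CPM in Hmox2+/+ hearts and 1.498, 1.72 and 1.197 CPM in Hmox2-/- hearts, at least 7.65-fold higher. Slc6a17, a vesicular amino acid transporter (5.13), Stbd1, which tethers glycogen (4.78, and 5.81 without WT 2), Fbxo44, a ubiquitin ligase subunit (4.35), Rab6b, a Golgi GTPase (3.93), and the macrophage complement receptor gene Vsig4 (3.82) also rose without overlap. Gdpd3, Pttg1, Trap1 and Ighg2c were also among the 12.

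Of the 12 with the largest fall, Ptprn2, a phosphatase-like protein of secretory granules, was 14.0, 14.0, 15.9 and 14.3 CPM in Hmox2+/+ hearts and 0.0294, 0.0302 and 0.120 CPM in Hmox2-/- hearts (log2 fold change -7.83 ± 0.28 (SE), adjusted p = 1.4e-08, and -8.72 without KO 3). Adcy1, a calmodulin-stimulated adenylyl cyclase, was 24.1, 21.1, 22.3 and 15.6 CPM and 1.32, 2.30 and 2.39 CPM (log2 fold change -3.36 ± 0.22 (SE), adjusted p = 2.7e-06). Plaat1, a phospholipase and acyltransferase on chromosome 16, was 26.02, 24.5, 24.3 and 22.7 CPM and 2.76, 2.69 and 2.60 CPM (log2 fold change -3.18 ± 0.12 (SE), adjusted p = 1.6e-08). In these 3 genes the controls were close to each other and far from all Hmox2-/- hearts. The 12 also held the interferon-induced GTPase gene Gbp2b (-5.83, and -7.66 without KO 1), the glycosyltransferase gene Gcnt1 (-2.90), Adarb2 (-4.18, and -8.15 without KO 2, the only Hmox2-/- heart with counts), Gm68671 (-2.93), Dsg3 (-2.72) and Or6x1 (-2.62), which were -3.55 and -3.22 without KO 3,, Spaca6 (-2.58) and Gm44245, at least 19.8-fold lower. With the offset the fold changes of all 24 genes kept their direction. They had been picked for their size, and the trend with length was far smaller, so this is no check of them.

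Transcripts that retain an intron lay lower in Hmox2-/- hearts than coding transcripts of the same length class. Such transcripts keep a stretch that other transcripts of the gene splice out, and many are held in the nucleus or decayed. Over all 31575 transcripts tested, 1114 (3.53%) rose and 811 (2.57%) fell. These counts depended on single libraries, with 74 higher and 109 lower without KO 2, 177 and 211 without WT 3, 187 and 219 without WT 4, 261 and 288 without KO 1, 309 and 375 without WT 1, 352 and 334 without WT 2 and 1480 and 841 without KO 3. Among transcripts of protein-coding genes, 31135 were tested, of which 1083 (3.48%) rose and 764 (2.45%) fell, with a median log2 fold change of -0.00. The 4024 retained-intron transcripts, of 2897 genes, had a median of -0.78, with 23 (0.572%) higher, 183 (4.55%) lower and 75.3% below 0. The 183 became 16 without KO 2, 31 without WT 4, 32 without WT 3, 42 without KO 1, 49 without WT 2, 71 without WT 1 and 117 without KO 3, 693 in DESeq2 and 0 with the replicate number as a block in edgeR. The 23470 protein-coding transcripts had a median of 0.07, with 998 (4.25%) higher and 516 (2.20%) lower. The 1873 transcripts annotated for nonsense-mediated decay had a median of -0.03. Against the fold change of their own gene, retained-intron transcripts were lower by a median of -0.69. Leaving out genes that share at least 20% of their words, 3471 had a median of -0.81.

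Medians fell with length in both classes, and the retained-intron class was lower in every length class. Medians of coding and retained-intron transcripts were 0.57 and 0.36 up to 500 bases, 0.49 and -0.38 from 501 to 1000, 0.36 and -0.48 from 1001 to 2000, 0.07 and -0.96 from 2001 to 4000 and -0.27 and -1.33 above 4000. Retained-intron transcripts held 1.74%, 1.69%, 1.80% and 1.67% of the counts in the Hmox2+/+ libraries and 1.37%, 1.29% and 1.26% in the Hmox2-/- libraries. Thus every Hmox2-/- library lay below every control, and among the Hmox2-/- libraries KO 1 was highest. Over the alternative fits the median of the class was -0.69 to -1.07. The part of RNA quality in this difference was not tested.

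**Figure D4:**
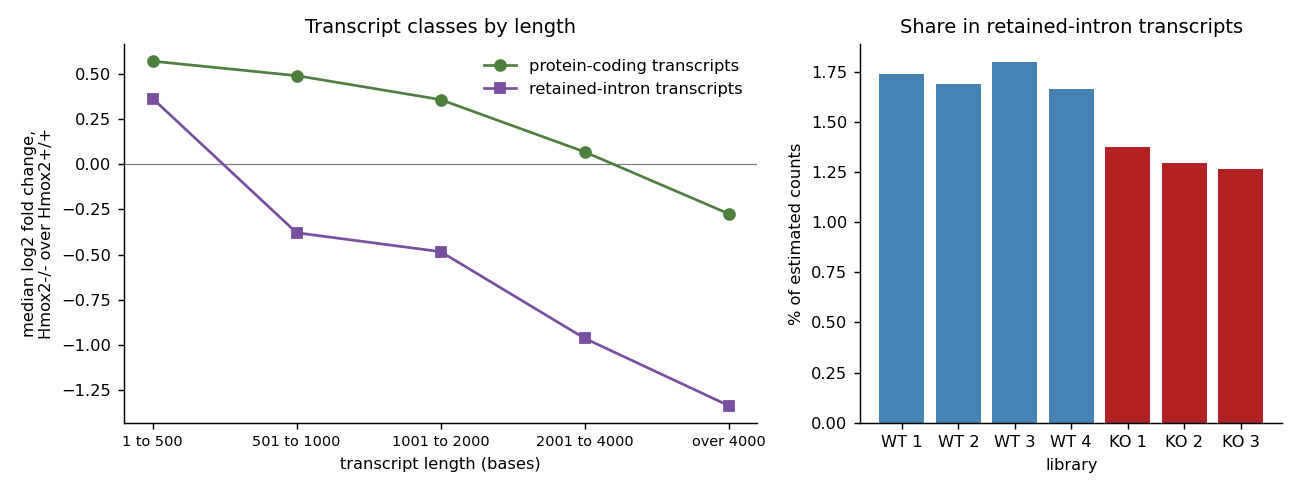
Left, median log2 fold change (Hmox2-/- over Hmox2+/+) of protein-coding (circles) and retained-intron (squares) transcripts in 5 classes of transcript length in bases. Right, the share of estimated counts in retained-intron transcripts in each library, in percent (blue Hmox2+/+, red Hmox2-/-). Retained-intron transcripts lie lower in each length class, and their share is 1.67% to 1.80% in the controls but 1.26% to 1.37% where Hmox2 is deleted.

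Of the 183 retained-intron transcripts that fell, 91 belonged to a gene that fell, 20 to a gene that rose and 72 to a gene that did not pass. Tnnt2, cardiac troponin T, did not pass as a gene (0.19, adjusted p = 0.15, but -0.26 and 0.015 with the offset), while its retained-intron transcript Tnnt2-205 was 48.5, 44.6, 45.2 and 53.7 CPM in Hmox2+/+ hearts and 9.43, 15.1 and 14.0 CPM in Hmox2-/- hearts (log2 fold change -1.90 ± 0.18 (SE), adjusted p = 0.0038), and Tnnt2-212 was 42.1, 38.2, 35.2 and 41.6 CPM and 4.42, 9.61 and 9.16 CPM (log2 fold change -2.34, adjusted p = 0.0089). Slc25a3-208, of the mitochondrial phosphate carrier, was 17.3, 13.5, 16.5 and 18.2 CPM and 3.73, 3.98 and 4.67 CPM (log2 fold change -1.99 ± 0.17 (SE), adjusted p = 0.0028), while its coding transcript Slc25a3-206 stood at 995, 1074.7, 970.3 and 1081 CPM and 1276, 1408 and 1311 CPM (log2 fold change 0.37, adjusted p = 0.042, and at most 0.16 with 1 library left out). Srsf5-212, of a serine and arginine rich splicing factor that regulates its own splicing, was 36.6, 32.2, 42.1 and 44.4 CPM and 9.52, 11.4 and 10.4 CPM (log2 fold change -1.90 ± 0.14 (SE), adjusted p = 0.0019). All 4 transcripts were lower in every Hmox2-/- heart than in every control. Others of the 183 belong to splicing genes, among them Rbm5-219 (-2.07), Son-214 (-2.10), Hnrnpl-206 (-2.16), Rbm25-206 (-2.38) and Arglu1-204 (-2.10).

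RNA splicing factors themselves fell as genes. Of 38 tested, none rose and 25 fell (median -0.48), and with the offset 1 rose and 30 fell (median -0.41). With counts of retained-intron transcripts left out, which was chosen after seeing the data, 20 fell (median -0.41). With 1 library left out at a time, 19 (without KO 2) to 28 (without KO 3) fell and none rose. Pnisr, a partner of serine and arginine rich factors, was 34.6, 35.7, 38.9 and 37.2 CPM in Hmox2+/+ hearts and 14.0, 17.2 and 16.9 CPM in Hmox2-/- hearts (log2 fold change -1.2 ± 0.11 (SE), adjusted p = 3.3e-05). Luc7l2, of the U1 particle, was 94.9, 89.4, 107 and 97.9 CPM and 41.0, 43.9 and 56.5 CPM (log2 fold change -1.04 ± 0.12 (SE), adjusted p = 2.1e-04). Rbm20, which directs titin splicing in heart muscle, was 222, 252, 215 and 228 CPM and 122, 163 and 182 CPM (log2 fold change -0.56 ± 0.13 (SE), adjusted p = 0.0095; -0.44 with the offset). None of these 3 overlapped between groups. Srsf5 (-0.95), Srsf1 (-0.69), Srrm2 (-0.78), Qki (-0.79) and Celf2 (-0.71) fell in both fits. Rbfox1, a muscle and nerve splicing regulator, fell by 0.58 on the log2 scale, with an adjusted p of 0.052 without KO 2.

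With a difference of 1 or more on the log2 scale, 383 transcripts (1.21%) rose and 531 (1.68%) fell, 914 in 801 genes. Of these, 113 moved against the sign of their gene and 192 belonged to a gene that did not pass. With 1 library left out the 914 became 168 without KO 2, 302 to 504 without 1 of the Hmox2+/+ hearts, 319 without KO 1 and 1084 without KO 3. In 22 genes transcripts were called in both directions. Hspa8, the constitutive heat shock cognate 70 chaperone, was one of them. Hspa8 as a gene was 590.4, 659, 558 and 519 CPM in Hmox2+/+ hearts and 1753, 1657 and 1687 CPM in Hmox2-/- hearts (log2 fold change 1.55 ± 0.10 (SE), adjusted p = 2.8e-06). Its transcript Hspa8-201 was 7.07, 3.48, 1.90 and 6.10 CPM and 1510.4, 1579.9 and 1693 CPM (log2 fold change 8.50 ± 0.45 (SE), adjusted p = 4.3e-04), whereas Hspa8-209 was 79.4, 101, 91.5 and 53.6 CPM in Hmox2+/+ hearts and 0 in every Hmox2-/- heart (adjusted p = 0.0013). Hspa8 shares 40.5% of its words with other genes, so the split between its transcripts is uncertain. Ube2d3, a ubiquitin-conjugating enzyme, had Ube2d3-204 at 0 in the 4 Hmox2+/+ hearts and at 8.08, 6.53 and 9.10 CPM in Hmox2-/- hearts (adjusted p = 0.0058). Tpm1, the main cardiac tropomyosin, had Tpm1-201 at 26.7, 22.8, 17.3 and 29.5 CPM and 7.18, 8.34 and 8.86 CPM (log2 fold change -1.56, adjusted p = 0.012, at most 0.071 with 1 library left out) and Tpm1-215 at 11.1, 8.38, 7.55 and 7.37 CPM and 23.6, 21.0 and 17.9 CPM (1.29, adjusted p = 0.015, at most 0.077).

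Genes of the circadian clock changed in both directions, with more of them lower in Hmox2-/- hearts. In the clock BMAL1 and CLOCK drive E-box genes such as the Per, Cry, Nr1d and PAR bZIP (Dbp, Tef, Hlf) genes, whose products feed back on it, while RORs activate and NR1D1 represses Bmal1. Of 23 clock genes tested, 4 rose and 14 fell (median -0.59), and 5 rose and 13 fell with the offset (median -0.46). Leaving out any 1 library kept 3 or 4 higher and 12 to 15 lower. Bmal1 was 7.14, 4.95, 2.06 and 2.97 CPM in Hmox2+/+ hearts and 9.08, 13.5 and 12.6 CPM in Hmox2-/- hearts (log2 fold change 1.58 ± 0.31 (SE), adjusted p = 0.0041). It was higher in every Hmox2-/- heart than in any control, and Nfil3, which opposes the PAR bZIP factors, rose as well (0.91). Cry1 rose by 0.60, with an adjusted p of 0.12 without KO 2.

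On the falling side, Per1 was 47.1, 63.2, 72.6 and 73.7 CPM in Hmox2+/+ hearts and 27.3, 27.6 and 34.4 CPM in Hmox2-/- hearts (log2 fold change -1.12 ± 0.15 (SE), adjusted p = 6.5e-04), Per3 was 10.3, 18.5, 25.6 and 22.6 CPM and 4.41, 6.81 and 7.21 CPM (log2 fold change -1.68 ± 0.26 (SE), adjusted p = 0.0013), and Bhlhe41, a repressor of E-box genes, was 23.0, 24.8, 28.4 and 29.0 CPM and 11.1, 12.6 and 10.7 CPM (log2 fold change -1.2 ± 0.12 (SE), adjusted p = 6.2e-05). Per2 was 4.61, 10.4, 14.5 and 13.2 CPM and 4.14, 2.36 and 5.24 CPM (log2 fold change -1.5 ± 0.33 (SE), adjusted p = 0.0067) and was the only one of these in which the groups overlapped, through WT 1. Ciart, a repressor of the BMAL1 and CLOCK pair, was 4.31, 11.9, 19.3 and 15.3 CPM and 3.50, 2.27 and 2.48 CPM (log2 fold change -2.26 ± 0.37 (SE), adjusted p = 0.0016), and shares 20.8% of its words. Cry2 (-0.93), Dbp (-1.66), Hlf (-1.45), Nr1d1 (-0.99, sharing 51.0% of its words), Nr1d2 (-0.65) and Usp2 (-0.59) fell, and so did Tef (-0.56, adjusted p = 0.053 without KO 2) and Bhlhe40 (-0.47, 0.063 without KO 2). Clock itself did not pass (-0.17, adjusted p = 0.42), although it rose with the offset (0.46, adjusted p = 0.0020).

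The Hmox2+/+ hearts were not alike in clock genes. WT 1 had the lowest level of the 4 for Per1, Per2, Per3, Dbp, Hlf, Tef and Ciart and the highest for Bmal1, and so lay nearest to the Hmox2-/- hearts. Without WT 1 the 23 genes had a median log2 fold change of -0.69 with 4 higher and 14 lower. The time of day at which the hearts were taken is not given in the sources used here, and its part in these differences was not tested.

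**Figure D5:**
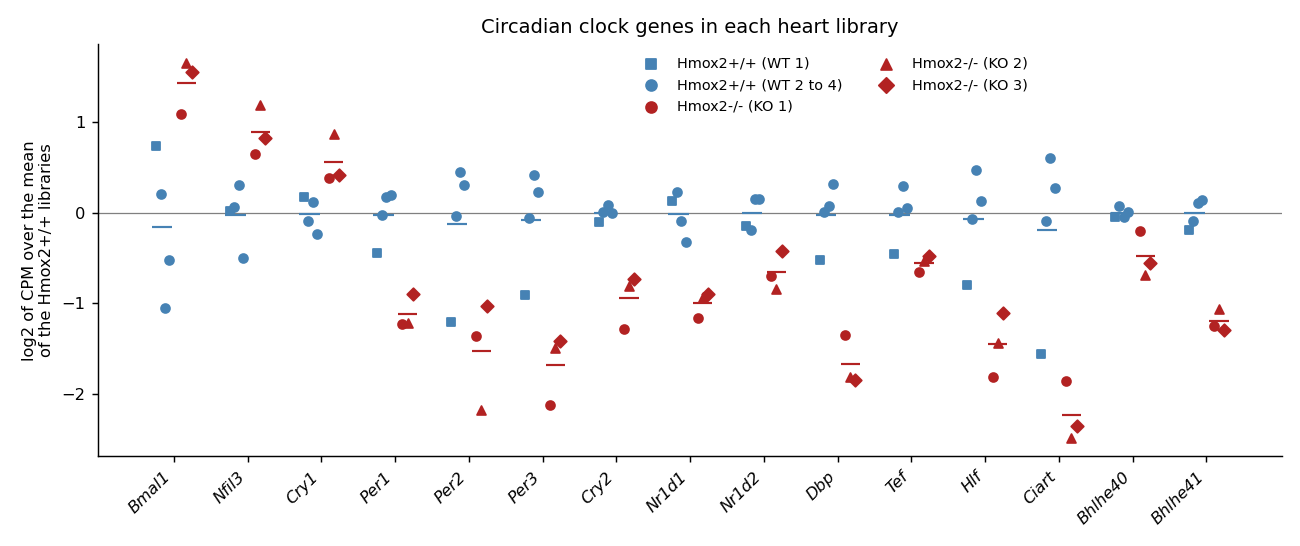
Level of 15 circadian clock genes in each heart library, as log2 of CPM over the mean CPM of the Hmox2+/+ libraries, with lines at the group means of these values (blue Hmox2+/+ with WT 1 as a square, red Hmox2-/- with a symbol for each library). The 3 genes at the left lie higher and the 12 at the right lower in Hmox2-/- libraries, and WT 1 stands between the groups for Per3, Hlf and Ciart and below KO 3 for Per2.

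Promoter sequence was looked at for the clock genes because the E-box CACGTG is where BMAL1 and CLOCK bind. In RefSeq promoters (GRCm38.p6), from 250 bases before the start, 18 of the 23 clock genes were matched by symbol and 7 held CACGTG, a palindrome that reads the same on both strands. The motif was in 6.02% of all 32851 promoters, in 6.86% of 27025 genes and in 9.77% of the 10411 tested genes that were matched. Windows of 60 bases around it are shown for 4 genes that fell and 1 that rose, with the motif in capitals, 5′ to 3′ on the strand of the gene:
Bhlhe41: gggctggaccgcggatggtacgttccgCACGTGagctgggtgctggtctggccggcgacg
Ciart: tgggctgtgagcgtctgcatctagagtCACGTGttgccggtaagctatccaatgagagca
Per1: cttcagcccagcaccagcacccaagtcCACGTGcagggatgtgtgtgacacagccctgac
Tef: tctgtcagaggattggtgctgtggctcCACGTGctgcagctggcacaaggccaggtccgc
Cry1: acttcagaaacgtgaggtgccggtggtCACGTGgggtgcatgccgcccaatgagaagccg
The windows are chr6:145865541-145865600 (minus strand) for Bhlhe41, chr3:95882312-95882371 (minus) for Ciart, chr11:69098756-69098815 (plus) for Per1, chr15:81802519-81802578 (plus) for Tef and chr10:85185082-85185141 (minus) for Cry1. The motif began 153, 116, 166, 127 and 60 bases before the start in that order. Genes that fell and the gene that rose thus both held it, and a match is a description of the letters only.

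Immediate early genes, which are transcribed within minutes of a stimulus, included more genes that fell than rose, while most did not pass. Of 30 tested, 1 rose and 9 fell (median -0.36), and with the offset none rose and 11 fell (median -0.46). Nr4a1, an orphan nuclear receptor, was 63.3, 50.5, 50.3 and 44.2 CPM in Hmox2+/+ hearts and 20.2, 19.6 and 22.5 CPM in Hmox2-/- hearts (log2 fold change -1.32 ± 0.13 (SE), adjusted p = 5.4e-05). Fos was 11.3, 4.43, 4.42 and 2.48 CPM and 1.32, 1.03 and 0.987 CPM (log2 fold change -2.21 ± 0.44 (SE), adjusted p = 0.0040), and Btg2, an antiproliferative gene, 75.2, 31.8, 37.5 and 44.5 CPM and 22.4, 18.7 and 21.3 CPM (log2 fold change -1.15 ± 0.24 (SE), adjusted p = 0.0052). The groups did not overlap, and WT 1 was the highest library for all 3 genes. Fosl2 (-1.04), Nr4a3 (-1.09) and Junb (-0.76) fell as well. Egr1 and Jun did not pass (adjusted p = 0.40 and 0.21).

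Genes of the sarcomere moved both ways, and several calls were lost with the offset. Of 20 thick and thin filament genes, 7 rose and 4 fell (median 0.14), but 3 rose and 8 fell with the offset (median -0.18), while 4 rose without WT 1 or WT 3. The short Myl2, ventricular regulatory light chain, was 6029, 5877, 5861 and 5472 CPM in Hmox2+/+ hearts and 10814, 9208 and 7071 CPM in Hmox2-/- hearts (log2 fold change 0.64 ± 0.13 (SE), adjusted p = 0.0047), and -0.05 with the offset (adjusted p = 0.55). Tnni3, cardiac troponin I, likewise went from 0.51 to -0.01 (adjusted p = 0.91). Among the members that passed in both fits were Myh7b, a slow myosin heavy chain gene that hosts a microRNA, from 66.5, 73.7, 63.5 and 76.0 CPM to 19.3, 33.0 and 26.1 CPM (log2 fold change -1.42 ± 0.16 (SE), adjusted p = 1.6e-04; -1.32 with the offset), and Tpm2, beta-tropomyosin (0.90 and 0.52). Myl7, the atrial light chain, rose from 0.892, 1.42, 0.495 and 0.885 CPM to 4.11, 4.08 and 13.2 CPM (log2 fold change 2.92 ± 0.47 (SE), adjusted p = 0.0015, and 2.13 without KO 3), and KO 3 was the highest library.

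Of 29 titin, Z-disc and M-band genes, 5 rose and 13 fell (median -0.33), and 3 rose and 9 fell with the offset (median -0.14), while 2 rose without KO 2 and 7 fell without KO 2, WT 2 or WT 4 and 8 without WT 1 or WT 3. Nrap, which anchors actin at the disc, was 756, 808, 768 and 892.7 CPM in Hmox2+/+ hearts and 349, 493 and 483 CPM in Hmox2-/- hearts (log2 fold change -0.87 ± 0.13 (SE), adjusted p = 0.0011; -0.64 with the offset). Myom2, an M-band crosslinker, was 1829.7, 1791, 1502 and 1851 CPM and 865, 1147 and 1252 CPM (-0.68; -0.50 with the offset). Desmin (Des) rose, from 1301, 1435, 1212 and 1377 CPM to 2051, 2034 and 1591 CPM (0.51; 0.52 with the offset). For each of these 3 the groups did not overlap and the 2 fits gave the same direction.

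In the intercalated disc and costamere, 2 of 32 genes rose and 13 fell (median -0.31), and 1 rose and 11 fell with the offset (median -0.08), while none rose without KO 2 and 8 fell without WT 2. Ctnna1, alpha-catenin, was 599.9, 608, 577 and 594 CPM in Hmox2+/+ hearts and 334, 405 and 423 CPM in Hmox2-/- hearts (log2 fold change -0.62 ± 0.10 (SE), adjusted p = 0.0018; -0.50 with the offset). Lama2, laminin alpha 2 (-0.66), Dag1, dystroglycan (-0.49), and Tjp1, a tight junction scaffold (-0.68), fell in both fits. Dystrophin (Dmd) was 146, 145, 155 and 152 CPM and 53.5, 90.4 and 118 CPM (-0.78, adjusted p = 0.014), but -0.08 with the offset (adjusted p = 0.55) and -0.52 without KO 1. Its level in the Hmox2-/- hearts was lowest in KO 1 and highest in KO 3, the order also of the ratio of long to short genes, and the cause was not tested.

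Calcium handling genes passed in shares near those of all genes tested (17.2% and 16.2%). Of 35, 6 rose and 8 fell (median -0.13), and 6 rose and 6 fell with the offset (median -0.06), while 14 fell without KO 3. The calsequestrins, which hold calcium in the sarcoplasmic reticulum, went opposite ways. Casq2, the cardiac gene, was 811, 815, 768 and 735 CPM in Hmox2+/+ hearts and 1466, 1137 and 1037 CPM in Hmox2-/- hearts (log2 fold change 0.63 ± 0.12 (SE), adjusted p = 0.0036), and Casq1, the skeletal gene, was 10.3, 9.59, 11.7 and 7.82 CPM and 3.97, 3.09 and 2.96 CPM (log2 fold change -1.55 ± 0.18 (SE), adjusted p = 1.9e-04). Neither overlapped between groups. The calmodulin kinase genes Camk2d (-0.70) and Camk2b (-1.12), the T-type channel gene Cacna1g (-0.80) and the inositol trisphosphate receptor gene Itpr1 (-0.73) fell in both fits. S100a1, a short calcium sensor gene, rose by 0.84 but had an adjusted p of 0.24 with the offset.

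Of 29 potassium, sodium and pacemaker channel genes, 2 rose and 11 fell (median -0.19), and 5 rose and 9 fell with the offset (median -0.07). Kcnj11, the pore of the ATP-sensitive potassium channel, was 149.6, 152, 138 and 147 CPM in Hmox2+/+ hearts and 59.5, 68.9 and 67.1 CPM in Hmox2-/- hearts (log2 fold change -1.17 ± 0.09 (SE), adjusted p = 1.4e-05; -1.17 with the offset). Kcne1, the accessory subunit of the slow delayed rectifier, was 7.88, 8.83, 7.12 and 5.95 CPM and 3.94, 2.96 and 3.32 CPM (log2 fold change -1.12 ± 0.18 (SE), adjusted p = 0.0015). Scn4b, a sodium channel beta subunit, was 35.4, 33.2, 61.9 and 29.1 CPM and 23.0, 19.0 and 17.8 CPM (log2 fold change -1.01 ± 0.23 (SE), adjusted p = 0.0078), with WT 3 above all others. In all 3 genes every Hmox2-/- heart was below every control. Kcna4 (-1.47), Kcnd2 (-0.67) and Kcnd3 (-0.68), of transient outward current, and Kcnj12 (-0.64), of inward rectifier current, also fell in both fits. The pacemaker channel gene Hcn2 rose (0.45; adjusted p = 0.10 with the offset).

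Of 41 genes of adrenergic signalling and cyclic AMP, 3 rose and 10 fell (median -0.12), and 5 rose and 6 fell with the offset (median -0.03), while 4 fell without KO 2, 5 without WT 1 or WT 4 and 6 without WT 3. Chrm2, the muscarinic receptor of the heart, was 188, 162, 181 and 199 CPM in Hmox2+/+ hearts and 83.4, 105 and 124 CPM in Hmox2-/- hearts (log2 fold change -0.81 ± 0.13 (SE), adjusted p = 0.0017; -0.31 with the offset). Adcy6, a main cardiac adenylyl cyclase, fell (-0.47), while Popdc2, a cyclic AMP-binding membrane protein gene (0.51), and the phosphodiesterase gene Pde8a (0.54) rose in both fits.

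The natriuretic peptide genes went opposite ways. Nppb, of brain natriuretic peptide, was 112, 112, 67.1 and 87.0 CPM in Hmox2+/+ hearts and 344, 194 and 140.0 CPM in Hmox2-/- hearts (log2 fold change 1.26 ± 0.26 (SE), adjusted p = 0.0052; 0.72 with the offset), with KO 1 highest and 0.83 without it. Nppa, of atrial natriuretic peptide, was 654, 595, 472 and 588 CPM and 347, 253 and 179.7 CPM (log2 fold change -1.15 ± 0.19 (SE), adjusted p = 0.0019; -1.72 with the offset). Neither gene overlapped between groups. Corin, the protease that activates the peptides, fell (-0.58) and Npr3, their clearance receptor, rose (0.55; 0.88 with the offset). Of 26 genes of natriuretic peptides and cardiac stress, 8 rose and 9 fell (median 0.01), and 5 rose and 9 fell with the offset (median 0.16), while 4 rose without KO 2 and 5 without WT 2. Lcn2, a lipocalin that binds iron siderophores, rose from 0.744, 1.14, 1.10 and 1.06 CPM to 3.06, 3.39 and 2.69 CPM (log2 fold change 1.52 ± 0.22 (SE), adjusted p = 7.9e-04).

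Of 28 cardiac transcription factor genes, 2 rose and 12 fell (median -0.24), and 2 rose and 6 fell with the offset (median -0.17), while 7 fell without KO 2. Tbx3, of the conduction system, was 6.84, 5.33, 5.75 and 6.65 CPM in Hmox2+/+ hearts and 3.70, 3.12 and 3.89 CPM in Hmox2-/- hearts (log2 fold change -0.77 ± 0.16 (SE), adjusted p = 0.0055). Tbx5 (-0.41) and Irx3 (-0.88) fell in both fits, and Tbx18, of epicardium and sinus node, rose (0.96). Prox1 (-0.81), Tead1 (-0.68) and Mef2a (-0.61) fell, with adjusted p of 0.11, 0.10 and 0.053 under the offset, and Tead1 was -0.45 without KO 1.

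Nuclear genes of the respiratory chain rose in large numbers without the offset and in few with it. Of complex I 33 of 37 rose, of complex II 2 of 4, of complex III 9 of 9, of complex IV 12 of 14 and of the ATP synthase 15 of 18, with none lower. In complex III 5 rose without KO 2. With the offset the counts higher and lower were 6 and 5, 2 and 0, 3 and 2, 4 and 3, and 1 and 5. Sdhb (0.69; 0.28 with the offset) and Sdhd (0.60; 0.28) of complex II passed in both. Mitochondrial ribosomal protein genes went from 70 higher and none lower of 78 (median 0.60) to 29 higher and 2 lower (median 0.21). Of all genes tested, 12.9% rose and 13% fell with the offset, so these genes still rose in a larger share and fell in a smaller one. Cytosolic ribosomal protein genes went from 74 higher and 1 lower of 81 (median 0.62) to 16 higher and 12 lower (median 0.01), and 48 of them share words with near-identical copies. Proteasome subunit genes went from 23 higher and 1 lower of 38 to 3 and 1, and 13 rose without KO 2, 14 without WT 4 and 15 without WT 1 or WT 3 in the first fit. Of genes that maintain mitochondrial DNA and RNA, 13 were higher and 2 lower of 39 in each fit (medians 0.21 and 0.15), while 7 rose without KO 1 or KO 2 and 8 without WT 1, WT 3 or WT 4. Among these Fastkd2, which stabilizes mitochondrial RNA, was 29.6, 29.1, 28.5 and 26.9 CPM in Hmox2+/+ hearts and 39.9, 34.3 and 37.7 CPM in Hmox2-/- hearts (log2 fold change 0.39 ± 0.09 (SE), adjusted p = 0.010), and Ppargc1b, a coactivator of mitochondrial genes, fell from 22.9, 18.5, 21.7 and 18.1 CPM to 8.78, 13.9 and 13.8 CPM (log2 fold change -0.73 ± 0.17 (SE), adjusted p = 0.0078).

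Fatty acid oxidation was the metabolic group with more genes lower than higher. Of 29 tested, 3 rose and 7 fell (median -0.02), and 2 rose and 10 fell with the offset (median -0.12), while 6 rose without KO 3 and 4 fell without WT 3. Cpt1a, the liver-type carnitine palmitoyltransferase, was 53.4, 52.6, 63.9 and 64.1 CPM in Hmox2+/+ hearts and 31.9, 38.2 and 36.8 CPM in Hmox2-/- hearts (log2 fold change -0.72 ± 0.11 (SE), adjusted p = 0.0013). Hadh, the short-chain 3-hydroxyacyl-CoA dehydrogenase, was 542, 524, 587 and 566 CPM and 206, 206 and 194 CPM (log2 fold change -1.46 ± 0.09 (SE), adjusted p = 1.9e-06). Slc27a1, a fatty acid transporter gene, fell (-0.54), and Pdk4, which closes the pyruvate dehydrogenase, went from 336, 221, 594 and 385 CPM to 127, 203 and 191 CPM (log2 fold change -1.14 ± 0.28 (SE), adjusted p = 0.010). Pdk4 differed widely among the controls but overlapped in no library. Echs1 rose (0.54; 0.34 with the offset).

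Of 28 genes of the tricarboxylic acid cycle and pyruvate dehydrogenase, 13 rose and 1 fell (median 0.24; 9 and 1 with the offset, median 0.15), while 8 rose without KO 2. Among the members that rose were Pdhb (0.54, 25.6% of words shared) and Got1 (0.50), which rose in both fits. Of 24 genes of glucose uptake and glycolysis, 9 rose and 1 fell (median 0.26; 4 and none with the offset, median 0.09), while 4 rose without KO 2. Pgam1, phosphoglycerate mutase, was 48.6, 54.7, 54.5 and 52.8 CPM in Hmox2+/+ hearts and 102, 93.1 and 78.7 CPM in Hmox2-/- hearts (log2 fold change 0.79 ± 0.10 (SE), adjusted p = 4.9e-04) but shares 36.7% of its words, and the glucose transporter Slc2a4 did not pass (adjusted p = 0.16). Of 7 genes of creatine supply 4 rose and none fell (median 0.53; 2 and none with the offset, median 0.17), Ckmt2, the mitochondrial creatine kinase, among them (0.55; 0.28 with the offset).

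Of 44 collagen and matrix genes, 5 rose and 11 fell (median -0.13), against 9 and 5 with the offset (median 0.03), while 2 rose without KO 1, KO 2 or WT 2 and 3 without WT 1 or WT 4, and 7 fell without KO 2. Col6a3 was 26.8, 25.1, 21.6 and 20.6 CPM in Hmox2+/+ hearts and 9.40, 10.9 and 11.9 CPM in Hmox2-/- hearts (log2 fold change -1.12 ± 0.13 (SE), adjusted p = 2.0e-04; -0.75 with the offset). The basement membrane genes Col4a3 (-1.18) and Col4a2 (-0.72) fell in both fits, and Bgn, biglycan, rose (0.48). Among 35 HIF factors and targets, 8 rose and 8 fell (median 0.13; 6 and 5 with the offset, median 0.03), while 5 rose without KO 1, WT 3 or WT 4, and 5 fell without KO 2, WT 1 or WT 2. Hif1a itself was 92.5, 72.9, 70.3 and 77.6 CPM and 41.8, 42.7 and 44.8 CPM (log2 fold change -0.86 ± 0.11 (SE), adjusted p = 3.8e-04; -0.44 with the offset). The targets Plod2 (-0.74) and Ak4 (-0.46) fell, whereas Ddit4 (0.69) and Egln3 (0.46) rose, and Vegfa did not pass (adjusted p = 0.27).

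Of 38 heat shock protein and chaperone genes, 13 rose and 1 fell (median 0.24; 7 and 1 with the offset, median 0.11). Trap1 had the largest rise of the list (log2 fold change 4.69; 4.57 with the offset). Besides Trap1 and Hspa8, Hspb8, a small heat shock protein gene of muscle, rose from 385, 428, 414 and 378 CPM to 668, 629 and 512 CPM (log2 fold change 0.59 ± 0.11 (SE), adjusted p = 0.0032; 0.37 with the offset). Genes of the unfolded protein and integrated stress response were 6 higher and 7 lower of 35 (median -0.00; 7 and 7 with the offset, median -0.06), while 4 fell without KO 2. Their shares without the offset were near those of all genes tested (17.2% and 16.2%). Eif2ak1, the kinase that slows translation when heme is scarce, was 26.5, 23.9, 23.5 and 22.8 CPM in Hmox2+/+ hearts and 29.8, 34.97 and 33.5 CPM in Hmox2-/- hearts (log2 fold change 0.45 ± 0.10 (SE), adjusted p = 0.0071; 0.65 with the offset), with 26.6% of its words shared. Xbp1 rose (0.57) and the chaperone gene Hsp90b1 fell (-0.62).

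Targets of p53 and interferon-stimulated genes passed without the offset in no larger shares than all genes tested (17.2% higher and 16.2% lower). Of 25 p53 targets, 3 rose and 4 fell (median 0.09; 5 and 4 with the offset, median 0.02), while 2 fell without KO 1, KO 2, WT 2, WT 3 or WT 4. Cdkn1a, the cell cycle inhibitor p21, was 14.1, 10.3, 12.6 and 12.8 CPM in Hmox2+/+ hearts and 38.96, 28.4 and 37.2 CPM in Hmox2-/- hearts (log2 fold change 1.5 ± 0.14 (SE), adjusted p = 4.1e-05; 1.30 with the offset). Mdm4, an inhibitor of p53, was 27.8, 28.8, 34.0 and 28.2 CPM and 8.96, 13.4 and 16.4 CPM (log2 fold change -1.21 ± 0.18 (SE), adjusted p = 9.5e-04). Of 36 interferon-stimulated genes, 4 rose and 5 fell (median -0.04; 2 and 5 with the offset, median -0.17), while 2 rose without KO 2 and 7 without KO 3. Xaf1 was 12.5, 13.8, 18.8 and 14.2 CPM and 6.20, 3.60 and 4.25 CPM (log2 fold change -1.67 ± 0.20 (SE), adjusted p = 2.6e-04), while Gbp2 rose (0.79). Of 30 ubiquitin ligase and autophagy genes, 8 rose and 9 fell (median -0.12; 5 and 6 with the offset, median 0.01), while 4 fell without WT 2 and 5 without KO 2, WT 1 or WT 3. Gabarapl1 (0.60) and Optn (0.45) were higher and Foxo3 (-0.68) lower in both fits.

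Summed levels of 8 cardiomyocyte markers overlapped between the genotypes, at 50298 to 55114 CPM in Hmox2+/+ hearts and 51009 to 56183 CPM in Hmox2-/- hearts, and 2 rose and none fell (median 0.08; none and 1 with the offset, median -0.07), while 3 fell without KO 3. The sum of 7 ventricular markers did not overlap, at 10702 to 11168 CPM and 12251 to 18310 CPM, although 2 rose and 2 fell (median -0.08; none and 1 with the offset, median -0.05). Erythroid, macrophage, endocardial and lymphatic, endothelial, epicardial, fibroblast, brown adipocyte, skeletal muscle and B cell markers also had higher sums in every Hmox2-/- heart than in any control. All these sums are without the offset, and the part of the trend with length in them was not tested. KO 1, furthest from the controls in that trend, had the highest ventricular, erythroid, macrophage, endothelial, fibroblast, brown adipocyte and skeletal muscle sums. KO 2 was highest for the others.

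Of 6 erythroid markers tested 5 rose (median 1.94; 5 with the offset, median 1.38), and their sum was 196 to 355 CPM in Hmox2+/+ hearts and 904 to 1474 CPM in Hmox2-/- hearts. The sum rested on hemoglobin genes, such as Hbb-bt (17.0, 21.5, 9.52 and 16.2 CPM and 88.5, 61.6 and 57.1 CPM, 59.3% of words shared), while the red cell membrane markers Slc4a1 and Car1 were under 1 CPM in every library. Of 12 macrophage markers 5 rose (median 0.55; 3 rose with the offset, median 0.41), and their sum was 155 to 230 CPM and 251 to 423 CPM. Lyz2, lysozyme, was 59.0, 63.1, 85.0 and 55.1 CPM and 199.9, 128 and 112 CPM (log2 fold change 1.16 ± 0.20 (SE), adjusted p = 0.0020). Of 9 endocardial and lymphatic markers 6 rose and 1 fell (median 0.75; 6 and none with the offset, median 0.88), with Vwf, von Willebrand factor, at 65.1, 73.6, 60.7 and 55.0 CPM and 108, 117 and 102 CPM (log2 fold change 0.78 ± 0.11 (SE), adjusted p = 7.8e-04) and the lymphatic gene Lyve1 (0.91) higher. The 12 endothelial markers were 3 higher and none lower (median 0.12; 5 and none with the offset, median 0.12), with sums of 819 to 906 CPM and 917 to 1087 CPM, while 5 rose without KO 3. Of 8 epicardial and mesothelial markers 6 rose (median 0.87; 5 with the offset, median 0.70), Upk3b from 9.81, 12.7, 10.5 and 11.6 CPM to 26.6, 36.8 and 20.3 CPM (log2 fold change 1.31 ± 0.18 (SE), adjusted p = 6.4e-04), while 3 rose without KO 2.

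Of 10 fibroblast markers 3 rose and 2 fell (median 0.35; 4 and none with the offset, median 0.19), with sums of 1121 to 1253 CPM in Hmox2+/+ hearts and 1315 to 1698 CPM in Hmox2-/- hearts, while 1 rose without WT 4 and 5 without KO 3. Of 12 smooth muscle and pericyte markers 3 rose and 4 fell (median -0.00), against 5 and 1 with the offset (median 0.28), and 1 rose without KO 2. Of 7 skeletal muscle markers 3 rose and none fell (median 0.51; 2 and none with the offset, median -0.09), with sums of 1474 to 1664 CPM and 1859 to 2671 CPM, while 1 rose without KO 2. Of the 11 listed, 7 were under 1 CPM in every library, the myosin genes Myh1, Myh2 and Myh4 among them. The sums thus came almost wholly from Ckm, Myl1, Tnni2 and Actn3. Of 7 neuron and Schwann cell markers 1 rose (median 0.09; none with the offset, median -0.24). Of the brown and white adipocyte markers, 1 of 4 and 1 of 8 rose and as many fell, against 1 higher of each and 1 lower among the white ones with the offset, and Ucp1 and Adipoq, which define these cells, were under 1 CPM in every library. None of 7 neutrophil and mast cell markers passed (adjusted p at most 0.05 in the edgeR test) in either fit, and their sums were 8.38 to 10.5 CPM and 7.08 to 8.20 CPM, lower in every Hmox2-/- heart. The part of the cell make-up of the hearts in the other results was not tested.

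Of 11 T and natural killer cell markers, 10 were under 1 CPM in every library, and the 1 tested did not pass. Of 10 B and plasma cell markers, 6 were under 1 CPM in every library and 2 of the 4 tested rose (1 with the offset), and the sum was 5.52 to 7.58 CPM in Hmox2+/+ hearts and 10.4 to 28.7 CPM in Hmox2-/- hearts. Ighg2c, an immunoglobulin heavy chain gene and the first of the 12 with the largest rise, was 0 in every Hmox2+/+ heart and 7.76, 7.17 and 4.46 CPM in Hmox2-/- hearts. Although the tissue is described as whole heart, atrial markers were low. Per length, the atrial light chain Myl7 was 1.00 to 3.53 TPM in Hmox2+/+ hearts and 10.7 to 39.1 TPM in Hmox2-/- hearts, against 10032 to 12530 and 17922 to 24137 TPM for the ventricular Myl2, and Bmp10, a right atrial gene, was under 1 CPM in every library. These TPM values set genes of the same library against each other and are not scaled between the genotypes. The sum of the 11 atrial and conduction markers was 630 to 811 CPM and 365 to 490 CPM, most of it Nppa. KO 3 had the highest Myl7 and the highest Myl4, an atrial essential light chain (0.744, 1.52, 0.876 and 1.17 CPM and 1.498, 1.78 and 13.2 CPM, log2 fold change 2.27, adjusted p = 0.025, but 0.54 and 0.21 without KO 3). Y-linked genes were read in all 7 libraries. Ddx3y was 68.9, 61.6, 86.5 and 86.5 CPM in Hmox2+/+ hearts and 41.1, 37.0 and 50.9 CPM in Hmox2-/- hearts (log2 fold change -0.82 ± 0.15 (SE), adjusted p = 0.0027), Eif2s3y was 49.5, 38.8, 47.0 and 48.3 CPM and 35.4, 32.1 and 41.0 CPM (-0.34, adjusted p = 0.046 and 0.19 without KO 2), and Kdm5d and Uty did not pass (adjusted p = 0.18 and 0.43).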

How the data were processed

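Libraries of 7 hearts were sequenced from oligo-dT-selected RNA, and the authors quantified them with Kallisto (0.44.0 per the submitters' processing notes, which also name the builds mm10 and GRCh38.p13), so that each deposited file holds an estimated count and a TPM value per transcript. A count that reads share between similar transcripts or genes is therefore a model estimate. In contrast to these notes, the paper's methods name a GENCODE mouse release on GRCm39 for the index. The deposited files list 118489 transcripts, of which 115140 (97.2%) matched GENCODE M39 (GRCm39) by stable ID, and 0.792% to 1.01% of counts did not match. Of the matched transcripts 115126 had a lower version than in GENCODE M39. Exon positions are those of M39 and may differ from the sequence that was counted. Estimated counts were summed for each gene and rounded. Genes were filtered with filterByExpr (minimum count 10), TMM-scaled and compared by edgeR 4.0.16 (quasi-likelihood F-test, R 4.3.3) with Benjamini-Hochberg adjustment, and transcripts likewise. The cut-offs of the study, 0.05 for the adjusted p and 1 for the absolute log2 fold change, defined DEGs. The offset for length and GC content came from a smooth for each library (mgcv 1.9.3). Every gene was cut into words of 31 bases, and one that found 20% or more of these elsewhere was taken to have near-identical copies.

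In simulated counts the gene test recovered 200 of 200 changed genes with 5 false calls among 13660, and the transcript test 154 of 200 with 11 false calls among 28629. The changed genes and transcripts were picked from those of higher counts, with median absolute log2 fold changes of 1.98 and 2.01. No trend with length or GC content was simulated, so the tests were not tried on smaller changes or on such a trend. A test of transcript usage (diffSpliceDGE) recovered 24 of 200 with 26 false calls among 7356, so none of its calls is named and only their number is given, with the alternatives. Depth was 7268626 counts in WT 1 and 29815090 to 31619776 in the other controls, and the limits from 3 counts cover counting error only.

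Genes were named by a rule: Hmox2 and its transcripts, mitochondrially encoded and Y-linked genes, in each direction the 12 nuclear DEGs of largest absolute fold change with at least 1 CPM in the higher group, no overlap and under 20% shared words, and in each gene group members with the smallest adjusted p or a defining role. Some genes that the rule names are not reported here. Single transcripts, Cdip1 and the retained-intron class were chosen after their values were seen. The members and lists were chosen with earlier results of these data known. Alternatives were DESeq2 1.42.0, other scalings, no filter, length-scaled TPM, the replicate number as a block, and each library left out in turn.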

Additional observations from a re-analysis of the deposited data

Results flagged for a closer look

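In 211 gene and transcript levels examined among the 4 Hmox2+/+ hearts, 7 had 1 library far from the other 3, where chance gives about 1 in 20, and WT 1, the library of lower depth, was that library in 3 of them. Gstm2 was 55.6 CPM in WT 2 against 60.9 to 61.5 CPM in the others. Hfe was 39.3 CPM in WT 1 against 34.0 to 34.7 CPM. Mdm4 was 34.0 CPM in WT 3 against 27.8 to 28.8 CPM. Por was 26.9 CPM in WT 1 against 31.04 to 31.58 CPM. Pttg1 was 1.63 CPM in WT 4 against 1.29 to 1.35 CPM. Slc6a17 was 0 CPM in WT 1, where 3 counts correspond to 0.446 CPM, against 0.277 to 0.319 CPM. Vegfa was 145 CPM in WT 3 against 175 to 181 CPM.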

How the results depend on the processing

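DESeq2, other scalings, no filter, length-scaled TPM, leaving out mitochondrially encoded genes, protein-coding genes alone and a fit of all 13 libraries gave 814 to 1123 DEGs against 927. With the offset for length and GC content 243 DEGs were higher. A test against a fold of 2 (glmTreat) left 189, 84 higher and 105 lower, with 15 members of the gene groups called against 600. Without retained-intron transcripts and with the offset, which was chosen after seeing the data, 237 DEGs were higher and 378 members were called. As a trend of log2 fold change with transcript length, the median of the longest minus that of the shortest bin of genes was -0.983, and 0.0284 with the offset. The mitochondrially encoded share of counts differed by -15.98 percentage points, and the share of TPM by -23.10.

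Leaving out 1 library at a time gave 252 to 560 DEGs higher, 1535 to 2911 genes higher and 1353 to 2775 lower, 168 to 1084 transcripts and 37 to 76 genes with changed transcript usage (70 with all libraries). DESeq2 called 2334 transcripts against 914.

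In deviations from the group means, same-numbered hearts correlated at -0.03, 0.08 and 0.04, and hearts of unlike numbers at -0.11 to 0.08. With so few libraries these values cannot tell whether the replicate numbers pair the hearts. With the replicate block 1452 genes were higher and 1447 lower, no transcript (0) was called by edgeR although 5220 had an unadjusted p of at most 0.05 (7378 without the block), and 30 genes had changed usage. With the replicate block and the offset there were 544 DEGs, 187 higher and 357 lower, 1023 genes higher, 1094 lower and 284 members called.

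Signs turned for 7 of the named genes, 6 of them with the offset. With the offset, the block with the offset, and the offset without retained-intron transcripts, the log2 fold changes were 0.46, 0.42 and 0.45 for Clock, -0.054, -0.056 and -0.062 for Myl2, -0.012, -0.0096 and -0.033 for Tnni3 and -0.26, -0.24 and -0.26 for Tnnt2. Kdm5d was 0.013 and 0.047 with the first and second of these, and Tfrc 0.19 and 0.19 with the first and the last. Nfe2l2 was -0.15 to 0.012 with 1 library left out. The cause was not tested. Depth limits WT 1 most, where 3 counts are 0.446 CPM.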
